A study of Homo sapiens with 48 samples.

Results

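RUVBL1 knockout was compared with the negative control guide sgNeg3 in A382, an established human glioblastoma cell line. The comparison used 4 of the 48 libraries of the series, chosen by their labels: 2 from cells infected with lentivirus carrying a guide RNA against RUVBL1 (guide 1 and guide 2, 1 library each), and 2 from cells infected with sgNeg3 (replicates 1 and 2). All 4 were collected at day 9 after infection, from cells grown in DMEM with serum. How Cas9 was supplied, and whether infected cells were a pool or a clone, is not given in the sources used here. The series, a study of the bromodomain protein BRD8 and the p53 network, sequenced polyadenylated RNA of A382 cells with guides against subunits of the EP400/TIP60 chromatin complex. The authors deposited FPKM values (fragments scaled to transcript length and to the number mapped). The sgNeg3 libraries share a separately normalised section of that table with guides 1 and 2 against RUVBL1, RUVBL2, MORF4L1 and MORF4L2, 10 libraries in all.

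RUVBL1 and RUVBL2 are AAA+ ATPases that assemble into stacked rings. The rings are a structural core of the EP400/TIP60 acetyltransferase complex and of the INO80 and SRCAP chromatin remodellers, which exchange and evict the histone variant H2A.Z. Together with HSP90 and the R2TP cochaperone, the same ATPases assemble small nucleolar ribonucleoproteins, RNA polymerase II and kinases of the PIKK family, such as ATM and mTOR. Proliferating cells depend on both proteins, and glioblastoma lines divide continuously in culture.

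Values were tested as log2(FPKM + 1) with limma over the 10 libraries of the section, and 11063 of 19102 genes reached 1 FPKM in 2 or more libraries and were tested. Calls required an adjusted p (Benjamini-Hochberg) under 0.05. Differences are RUVBL1 minus sgNeg3 on the log2 scale with their standard error (SE, n = 2 libraries each), and they understate changes of weakly expressed genes. The SE and p-value rest on a moderated spread pooled over all pairs of the section. The 2 libraries of each knockout carry different guides, so this spread holds guide differences. No label ties the sgNeg3 libraries to different cultures, so their own spread may be only technical. The SD of library 2 minus library 1 across genes was 0.13 for sgNeg3, 0.20 for RUVBL1 and 0.46 for MORF4L2. A p-value here covers library-to-library spread only. One FPKM stood for 16.4 and 14.5 fragments per kilobase in the RUVBL1 libraries and 17.6 and 15 in the sgNeg3 libraries. Fewer cells of a type and less RNA per cell cannot be told apart in bulk RNA. Of 10 markers of glioblastoma or neural progenitor cells, 6 reached an FPKM of 1, and 1 of these, SOX2, was called lower. VIM had 4318 and 4223 FPKM with RUVBL1 guides, against 6220.1 and 6378 FPKM in the sgNeg3 libraries, CD44 had 337 and 312 FPKM, against 322 and 326 FPKM, and CHI3L1 and FABP7 were at 0 in all 4 libraries. Of 7 astrocyte markers 1 reached an FPKM of 1, GJA1, which was called lower at 18.7 and 14.6 FPKM, against 26 and 26.8 FPKM; AQP4 and S100B were at 0 and GFAP at 0.195 and 0.0848 FPKM, against 0.111 and 0.105 FPKM. Of 6 neuron markers 5 reached it, with a summed level of 318.0 and 310.7 FPKM with RUVBL1 guides, against 362.7 and 392.2 FPKM in the sgNeg3 libraries. MAP2 and STMN2 were called lower, and TUBB3, SNAP25 and SYT1 were not called. SYT1 stood the other way, at 91.1 and 84.5 FPKM, against 68 and 68.2 FPKM. Defining markers of oligodendrocytes (OLIG2, MOG), immune cells (CD3E, CD163) and endothelium (CDH5) were at 0 in all 4 libraries. The summed level of 5 epithelial markers was 111 and 118 FPKM with RUVBL1 guides, against 50.7 and 53.6 FPKM in the sgNeg3 libraries. That of 9 immune markers was 15.7 and 15 FPKM, against 24.4 and 24 FPKM. CD68 made up most of it, at 14.4 and 13 FPKM, against 24.1 and 23.9 FPKM, and was called lower. CD14 was called higher, at 1.23 and 1.85 FPKM, against 0.172 and 0.101 FPKM. It reached 1 FPKM only in RUVBL1 and RUVBL2 knockout libraries, so its call is no support. The part of these markers in the results was not tested.

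The targeted mRNA was lower with both guides. RUVBL1 had 24.2 and 25.6 FPKM with guides 1 and 2 against RUVBL1, and 61.5 and 62.6 FPKM in the sgNeg3 libraries. The 2 groups did not overlap, the guides lay within 2 FPKM of each other, and the difference was -1.28 ± 0.16 (limma adjusted p = 0.00126). In the 4 MORF4L1 and MORF4L2 knockout libraries of the section RUVBL1 ranged from 54.5 to 78.8 FPKM. RUVBL2, the partner ATPase, had 133 and 137 FPKM in RUVBL1 knockout, against 94.8 and 111 FPKM in the sgNeg3 libraries. Its 2 RUVBL1 knockout libraries were the higher ones, and the difference of 0.39 ± 0.22 did not pass (limma adjusted p = 0.202). A guide that shifts the reading frame need not lower the mRNA, so the remaining RUVBL1 level does not give the remaining protein.

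**Figure D1:**
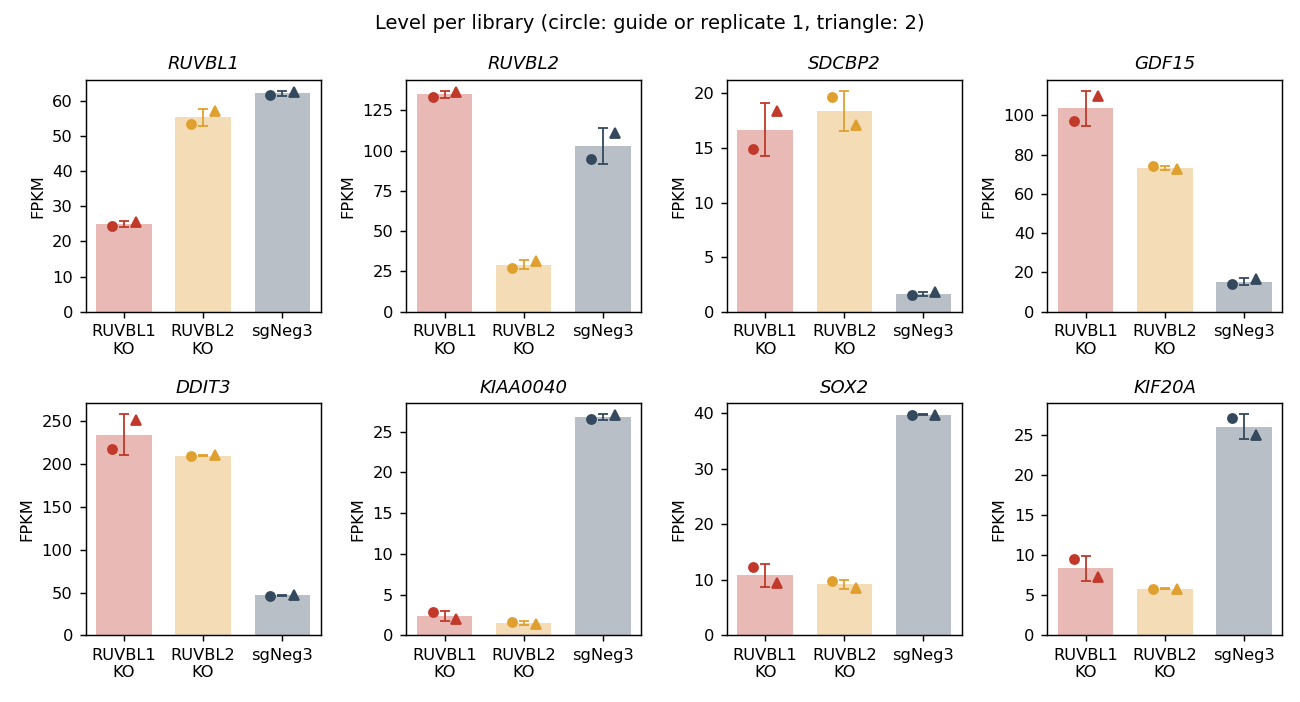
Levels of 8 genes in FPKM in RUVBL1 knockout, RUVBL2 knockout and sgNeg3 libraries. Points are libraries (circle, guide or replicate 1; triangle, 2), bars are means and error bars are SD (n = 2). RUVBL1 had 24.2 and 25.6 FPKM in RUVBL1 knockout, 53.4 and 57 FPKM in RUVBL2 knockout and 61.5 and 62.6 FPKM in the sgNeg3 libraries, while SDCBP2, GDF15 and DDIT3 stood above and KIAA0040, SOX2 and KIF20A below the sgNeg3 libraries in both knockouts.

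RUVBL1 knockout changed 3077 of the tested genes, 27.8% of them, with 1366 higher (12.3%) and 1711 lower (15.5%). The balance of directions depended on the scaling: 1626 were higher and 1579 lower after rescaling the libraries by their median ratio, and 1961 higher and 1870 lower with a trend on transcript length removed. Differences of at least 1 log2 unit were found in 176 called genes that rose and 314 that fell, and differences of at least 2 log2 units in 13 and 12. In all 3077 called genes both RUVBL1 libraries lay outside the range of the sgNeg3 libraries, as did those of 38.5% (higher) and 42.4% (lower) of all genes tested. The median difference over all genes was -0.02. The calls changed when 1 library was left out: 1910 of the 3077 genes were still called without RUVBL1 guide 1, 853 without guide 2, 908 without sgNeg3 replicate 1, 902 without sgNeg3 replicate 2, and 723 in each of these 4 fits. Below, a gene is said to hold where it was called in all 4.

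**Figure D2:**
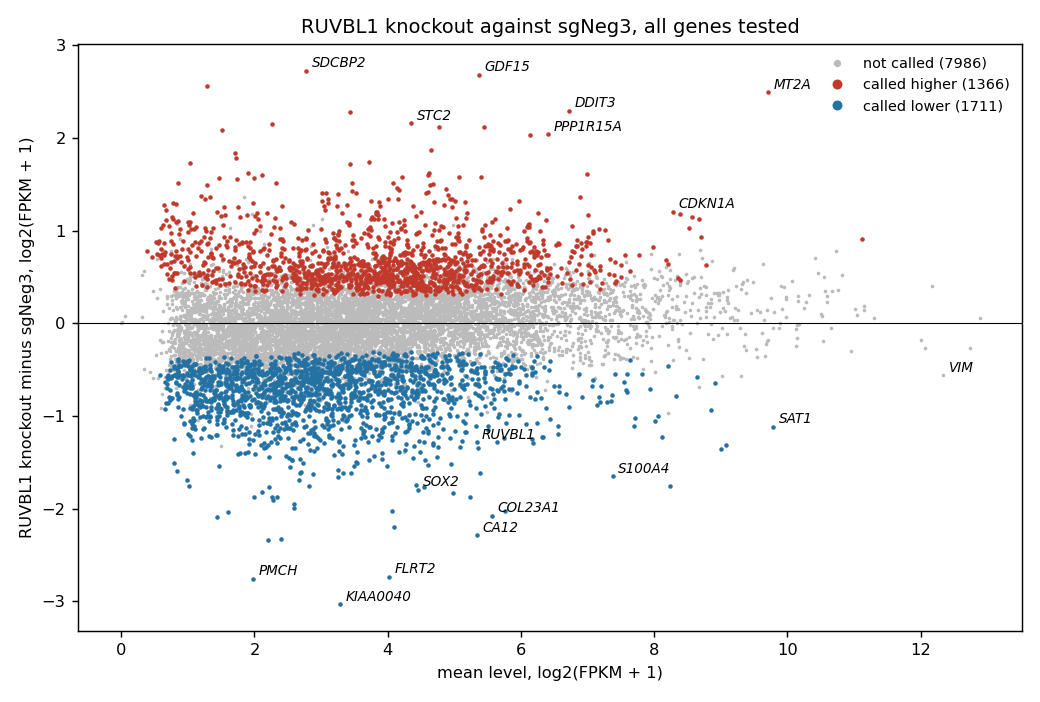
RUVBL1 knockout minus sgNeg3 on the log2(FPKM + 1) scale (vertical axis) against the mean level on the same scale (horizontal axis) for 11063 genes. Red points are the 1366 genes called higher, blue points the 1711 called lower and grey points the rest, and SDCBP2 (2.73) and KIAA0040 (-3.03) mark the ends of the range.

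Other subunits of the complexes that contain RUVBL1 were mostly not called. Of 19 subunits of the EP400/TIP60 complex, 4 were lower (all genes, 15.5%) and 0 higher, with a median of -0.11; the 4 include RUVBL1 itself. ING3, a PHD-finger subunit, had 4.9 and 4.03 FPKM with RUVBL1 guides, against 8.58 and 7.05 FPKM in the sgNeg3 libraries, a difference of -0.69 ± 0.13 (limma adjusted p = 0.00637). YEATS4, the acetyl-lysine reader GAS41, changed by -0.55 ± 0.16 and EPC1, a scaffold subunit, by -0.34 ± 0.10. These 3 calls did not hold, with limma adjusted p up to 0.0707, 0.189 and 0.204 when 1 library was left out. The catalytic subunits were near the sgNeg3 level, with KAT5 (TIP60) at 16.6 and 14 FPKM, against 14.6 and 14.7 FPKM, and EP400 at 7.09 and 6.43 FPKM, against 7.98 and 8.4 FPKM. Of 18 INO80 and SRCAP subunits, 2 rose (ACTR5 and ZNHIT1) and 2 fell (YEATS4 and YY1). That was 11.1% each way, where 12.3% of all genes tested rose and 15.5% fell. None of these calls held, with limma adjusted p up to 0.0641 for ACTR5, 0.0786 for ZNHIT1 and 0.251 for YY1. Among the H2A variants, H2AFY2, which encodes macroH2A2, fell to 7.68 and 6.82 FPKM, against 13.7 and 13.2 FPKM in the sgNeg3 libraries (-0.81 ± 0.11, limma adjusted p = 0.00149). H2AFZ, the main H2A.Z gene, stood at 289 and 252 FPKM, against 352 and 359.9 FPKM, and was not called (-0.40 ± 0.23). H2AFV, the other H2A.Z gene, fell to 47.8 and 39.7 FPKM, against 63.3 and 65.2 FPKM (-0.55 ± 0.15, limma adjusted p = 0.0234). The H2AFV call did not hold. Of 5 tested H2A variants, 2 were lower (all genes, 15.5%) and 0 higher, with a median of -0.40.

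Of genes tied to the chaperone functions of RUVBL1 and RUVBL2, most were not called. PDRG1, a subunit of the prefoldin-like module that joins R2TP, had 64.2 and 80.2 FPKM with RUVBL1 guides and 24.1 and 22.6 FPKM in the sgNeg3 libraries. Both guides stood well above both controls, by 1.58 ± 0.17 (limma adjusted p = 0.000603), and the call held. Of 14 R2TP and prefoldin-like genes, 3 rose (all genes, 12.3%) and 0 fell, the other risers being ZNHIT3 and PFDN6. The core R2TP subunits RPAP3 (0.27 ± 0.10) and PIH1D1 (0.16 ± 0.19) did not pass. Of 10 small nucleolar ribonucleoprotein genes, 3 rose: NOP58, a box C/D core protein, by 0.51 ± 0.15, NAF1, an H/ACA assembly factor, by 0.46 ± 0.13, and NOLC1, a nucleolar chaperone, by 0.40 ± 0.10. Of 17 RNA polymerase II subunits, 2 rose, 11.8% and so near the share of all genes, among them POLR2A, the largest subunit, with 68.3 and 72.2 FPKM, against 35.4 and 36.2 FPKM (0.95 ± 0.23). Called or not, most members of these 3 lists lay above 0, where the median over all genes was -0.02. That was 11 of 14 R2TP and prefoldin-like genes (median 0.28), 9 of 10 ribonucleoprotein genes (0.38) and 16 of 17 polymerase subunits (0.28). None of the calls of ZNHIT3, PFDN6, NOP58, NAF1, NOLC1 and POLR2A held, with limma adjusted p up to 0.131, 0.242, 0.18, 0.212, 0.138 and 0.112. Of 9 genes of the PIKK kinases and their TTT maturation complex, 0 were called by limma in either direction (median -0.12), with 1 higher and 0 lower at an unadjusted p under 0.05.

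Mitotic genes fell together. Of 35 tested genes of G2 phase and mitosis, 32 were called lower and 0 higher, where 15.5% of all genes tested were lower, and their median difference was -1.02. Without any 1 of the 4 libraries, 23 to 30 were lower. Many promoters of this programme carry a cell-cycle genes homology region (CHR), the site of the DREAM repressor and of B-MYB and FOXM1 complexes. The letters TTTGAA or TTCGAA were searched on either strand, within 250 bases before to 50 bases after the first RefSeq start listed per gene. They were found in 18 of 28 members with a window (64.3%) and in 11% of tested genes with a window. Of all 27305 windows, 16.6% held them. The share was 16.3% among all genes called lower and 9.86% among those called higher. Of the 18 members with these letters, 17 were called lower, as were 10 of the 10 without them. CCAAT, the box bound by NF-Y, was found in 23 of the 28 windows (82.1%), against 37.3% of tested genes. The 250 bases before the start of 3 of these genes are shown from RefSeq on GRCh38.p14, because they show the position of the shared letters, which are in capitals: CCNB2, chr15:59104896-59105145; KIF11, chr10:92592880-92593129; BUB1B, chr15:40160819-40161068; all on the plus strand.
CCNB2: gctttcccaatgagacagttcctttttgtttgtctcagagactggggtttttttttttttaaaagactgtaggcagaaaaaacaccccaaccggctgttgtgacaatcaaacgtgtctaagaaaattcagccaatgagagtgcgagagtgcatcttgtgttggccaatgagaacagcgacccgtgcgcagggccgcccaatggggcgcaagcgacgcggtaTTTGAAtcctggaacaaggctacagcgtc
KIF11: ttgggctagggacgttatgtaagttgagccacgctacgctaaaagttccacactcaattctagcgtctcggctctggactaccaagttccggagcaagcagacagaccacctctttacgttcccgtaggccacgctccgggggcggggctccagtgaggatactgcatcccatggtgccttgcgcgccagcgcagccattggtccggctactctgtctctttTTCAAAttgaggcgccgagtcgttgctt
BUB1B: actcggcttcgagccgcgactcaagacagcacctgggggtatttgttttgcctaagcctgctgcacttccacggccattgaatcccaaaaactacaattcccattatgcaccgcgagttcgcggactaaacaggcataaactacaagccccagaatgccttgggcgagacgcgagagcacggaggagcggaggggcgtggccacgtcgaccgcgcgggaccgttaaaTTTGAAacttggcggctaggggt

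In KIF11 the letters lie on the opposite strand and read TTCAAA here. The capitals begin 29 bases before the start of CCNB2, 28 before that of KIF11 and 23 before that of BUB1B, and they overlapped no match of the other motifs searched. CCNB2, cyclin B2, had 22 and 19 FPKM with RUVBL1 guides and 46.7 and 47.3 FPKM in the sgNeg3 libraries. Its level was about as low with either guide, and the difference was -1.16 ± 0.18 (limma adjusted p = 0.00277). KIF11, the kinesin that separates spindle poles, had 7.3 and 4.56 FPKM, against 18.4 and 17.9 FPKM. Guide 2 was the lower of the RUVBL1 libraries, and both lay below both controls, by -1.49 ± 0.18 (limma adjusted p = 0.001). BUB1B, a kinase of the spindle checkpoint, had 6.18 and 4.23 FPKM, against 14.3 and 13.6 FPKM (-1.28 ± 0.15), again with guide 2 lower. KIF20A, a kinesin of the central spindle, had 9.5 and 7.29 FPKM, against 27.1 and 25 FPKM, the difference of smallest adjusted p in the list (-1.54 ± 0.13, limma adjusted p = 0.000304). CDK1, the mitotic kinase, fell by 0.97 ± 0.17, CCNB1, cyclin B1, by 1.11 ± 0.16, TOP2A, the topoisomerase that untangles chromosomes, by 1.33 ± 0.23 and NUSAP1, a spindle protein, by 1.19 ± 0.14. These 8 calls held.

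Of 44 genes of G1/S and DNA replication, 14 were lower (all genes, 15.5%) and 0 higher (median -0.32), and 3 to 15 were lower without any 1 library. PRIM1, the primase subunit that starts each DNA strand, had 3.44 and 2.91 FPKM with RUVBL1 guides, against 6.88 and 8.75 FPKM in the sgNeg3 libraries (-1.07 ± 0.14, limma adjusted p = 0.00149). RFC5, of the clamp loader, had 8.04 and 6.7 FPKM, against 12.3 and 11.9 FPKM (-0.66 ± 0.11). The PRIM1 and RFC5 calls held. Of the 6 subunits of the MCM helicase, MCM6 was lower (-0.48 ± 0.13; limma adjusted p up to 0.204 when 1 library was left out) and the others were not called, for example MCM7 at 46.6 and 45.4 FPKM, against 48.8 and 47.9 FPKM, and MCM5 at 19.4 and 20.1 FPKM, against 20.1 and 18.8 FPKM, and PCNA, the sliding clamp, stood at 145 and 136 FPKM, against 107 and 113 FPKM (0.35 ± 0.17). Of 27 genes of homologous recombination and Fanconi repair, 9 were lower, against the same 15.5%, and 0 higher (2 to 8 lower without any 1 library). FANCI and FANCD2, the ubiquitinated pair of the Fanconi pathway, changed by -0.76 ± 0.10 and -0.79 ± 0.13, and both calls held. LMNB1, the nuclear lamin B1, fell to 13 and 8.6 FPKM, against 38.6 and 37.5 FPKM in the sgNeg3 libraries (-1.75 ± 0.16, limma adjusted p = 0.0004).

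Replication-dependent histone genes rose in the same libraries. Their main transcripts end in a stem-loop without a poly(A) tail, so a polyadenylated library samples them only in part. Of 21 tested, 11 rose and 0 fell, where 12.3% of all genes tested rose, with a median of 0.71. A further 11 members were not tested, and 18 of the 21 also reached an FPKM of 1 in 2 of the 6 sgNeg3, MORF4L1 and MORF4L2 libraries, of which 9 rose. Without any 1 library, 6 to 9 rose. HIST1H4H, a histone H4 gene, had 19.4 and 26.6 FPKM with RUVBL1 guides and 3.42 and 4.4 FPKM in the sgNeg3 libraries (2.28 ± 0.20, limma adjusted p = 0.000304). HIST3H2A had 22.6 and 25.2 FPKM, against 11 and 12 FPKM (0.99 ± 0.16). Both calls held. HIST1H2BE had 1.34 and 1.52 FPKM and was listed at 0 in both sgNeg3 libraries, and HIST1H2BO had 3.05 and 2.4 FPKM, against 0 and 0.257 FPKM. Both reached 1 FPKM only in RUVBL1 and RUVBL2 knockout libraries, so their calls are no support. HIST2H2AC went the other way without passing, at 0.797 and 0.301 FPKM, against 1.74 and 2.62 FPKM. Histone genes have near-identical copies, so the split of fragments between them is uncertain.

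Many targets of p53 rose, and a few fell. Of 54 tested, 23 rose (all genes, 12.3%) and 3 fell, with a median of 0.43, and 14 to 17 rose without any 1 library. Of the 54, 52 also reached an FPKM of 1 in 2 of the 6 sgNeg3, MORF4L1 and MORF4L2 libraries. Of these 52, 21 rose, and the other risers entered the test only through knockout libraries where they are high, so they are no support. The cyclin-dependent kinase inhibitor CDKN1A (p21) had 449 and 490.2 FPKM with RUVBL1 guides and 206 and 201 FPKM in the sgNeg3 libraries (1.20 ± 0.15). MDM2, the ubiquitin ligase of p53, had 43.9 and 45 FPKM, against 24.7 and 22.1 FPKM (0.90 ± 0.11). GDF15, a secreted stress cytokine, had 97.3 and 110.0 FPKM, against 14 and 16.7 FPKM, 6.75-fold the control mean (2.68 ± 0.20, limma adjusted p = 0.000218). BTG2, an antiproliferative factor, had 13.6 and 14.3 FPKM, against 5.48 and 5.63 FPKM (1.19 ± 0.12), and PHLDA3, an AKT inhibitor, had 90.5 and 107 FPKM, against 34.9 and 42.9 FPKM (1.32 ± 0.22). Every call named so far in this paragraph held. Not all members moved that way: PLK2, a polo-like kinase, fell to 78.7 and 73.9 FPKM, against 142 and 145 FPKM in the sgNeg3 libraries (-0.90 ± 0.14), and SAT1, a polyamine acetyltransferase, to 611 and 586 FPKM, against 1314 and 1284 FPKM (-1.12 ± 0.23). PLK2 held, SAT1 did not (limma adjusted p up to 0.0861), and PANK1, the other member that fell, did not either (up to 0.15 by limma). BAX, which permeabilises mitochondria, stood at 367 and 422 FPKM, against 326 and 314 FPKM, and was not called (0.30 ± 0.21). Among regulators of cell death, BCL2L1, which encodes BCL-XL, rose to 177 and 199.8 FPKM, against 73.1 and 72.3 FPKM (1.36 ± 0.19, limma adjusted p = 0.00163), while BCL2L11, which encodes the BH3-only protein BIM, fell to 4.97 and 4.09 FPKM, against 11.1 and 10.5 FPKM (-1.10 ± 0.13).

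Of 31 tested genes of the ATF4 amino acid response, 14 rose (all genes, 12.3%) and 1 fell (median 0.40), and 8 to 9 rose without any 1 library. ATF4 dimers with C/EBP proteins bind a composite element, and the letters TGATGNAA, a core of it, were found on either strand in 8 of 25 members with a window (32%) and in 1.65% of tested genes with one. Of the 8 members, 4 were called (ATF3, CHAC1 and SLC3A2 higher, AARS lower, the last 2 not holding), as were 10 of the 17 without these letters. The 250 bases before the first listed start of ATF3 (chr1:212565157-212565406) and CHAC1 (chr15:40953221-40953470) show these letters in capitals. Both stretches lie on the plus strand of GRCh38.p14 and were taken from RefSeq. Other starts of these genes were not searched, so the stretch shown need not be the promoter used in these cells.
ATF3: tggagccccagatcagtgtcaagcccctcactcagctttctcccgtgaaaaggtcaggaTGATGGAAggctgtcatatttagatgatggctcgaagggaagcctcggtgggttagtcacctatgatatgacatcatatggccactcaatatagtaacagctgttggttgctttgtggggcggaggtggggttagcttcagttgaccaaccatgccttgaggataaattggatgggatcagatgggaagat
CHAC1: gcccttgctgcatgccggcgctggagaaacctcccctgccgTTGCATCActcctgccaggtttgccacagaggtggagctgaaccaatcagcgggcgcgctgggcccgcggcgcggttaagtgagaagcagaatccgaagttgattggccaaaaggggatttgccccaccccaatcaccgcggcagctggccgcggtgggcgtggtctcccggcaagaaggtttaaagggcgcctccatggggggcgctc

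ATF3, a stress-induced bZIP factor, had 20.5 and 25.8 FPKM with RUVBL1 guides and 6.57 and 5.83 FPKM in the sgNeg3 libraries (1.74 ± 0.16, limma adjusted p = 0.0004). CHAC1, which degrades glutathione, had 102 and 96 FPKM, against 44.7 and 51 FPKM (1.04 ± 0.16, limma adjusted p = 0.00297). In both genes the RUVBL1 libraries lay above the sgNeg3 libraries without overlap. DDIT3, the stress factor CHOP, had 217 and 251 FPKM, against 46.4 and 47.2 FPKM (2.29 ± 0.30), and PPP1R15A, which encodes GADD34, the phosphatase subunit that restores translation, had 161 and 182 FPKM, against 40.9 and 40.9 FPKM (2.04 ± 0.16, limma adjusted p = 0.000218). STC2, a secreted glycoprotein, had 39.3 and 45.1 FPKM, against 8.61 and 8.7 FPKM (2.16 ± 0.12), CEBPB had 39.4 and 42.4 FPKM, against 13.9 and 13.8 FPKM (1.5 ± 0.19), and TRIB3, a pseudokinase that restrains ATF4, had 106 and 93.8 FPKM, against 46.5 and 47.1 FPKM (1.08 ± 0.17). These 7 calls held. ATF4 had 531 and 557 FPKM, against 369 and 334 FPKM (0.63 ± 0.20), a call that did not hold (limma adjusted p up to 0.238). Asparagine synthetase, ASNS, stood at 116 and 101 FPKM, against 125 and 121 FPKM, and the serine synthesis gene PHGDH changed by -0.45 ± 0.15 without passing, as did PSAT1 at 81.9 and 65.6 FPKM, against 72.2 and 74.5 FPKM. Of 21 chaperone and unfolded protein response genes of the endoplasmic reticulum, 3 rose and 4 fell, 14.3% and 19%, where 12.3% and 15.5% of all genes did: PPP1R15A, HERPUD1 and DNAJB9 were higher, and the chaperones and disulfide isomerases CALR, HSP90B1, PDIA4 and PDIA6 lower. HSP90B1, which encodes GRP94, fell to 195 and 179 FPKM, against 378 and 374 FPKM in the sgNeg3 libraries (-1.01 ± 0.17, limma adjusted p = 0.00382), and HSPA5, BiP, stood at 93.2 and 92.1 FPKM, against 113 and 112 FPKM. The HSP90B1 call was lost without 1 library (limma adjusted p up to 0.0507), as were those of HERPUD1, DNAJB9, CALR and PDIA6, while PDIA4 held.

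Metal- and proteotoxic-stress genes were among the largest rises. MT2A, a metallothionein that binds zinc and copper, had 1789.7 and 2196 FPKM with RUVBL1 guides and 364 and 340.0 FPKM in the sgNeg3 libraries. The 2 groups were far apart (2.49 ± 0.35, limma adjusted p = 0.00186). MT1X, a related metallothionein, had 41.9 and 51.4 FPKM, against 9.85 and 14.6 FPKM (1.87 ± 0.29). These were the 2 metallothioneins of 10 that could be tested, and reads of near-identical family members may be shared between them. The promoter of MT2A is shown because metallothionein genes carry clustered metal response elements: the 250 bases before its start (chr16:56608334-56608583, plus strand, GRCh38.p14, RefSeq) held 7 matches to the core TGCNCNC on either strand, in capitals, a short motif found in 63.6% of tested genes with a window.
MT2A: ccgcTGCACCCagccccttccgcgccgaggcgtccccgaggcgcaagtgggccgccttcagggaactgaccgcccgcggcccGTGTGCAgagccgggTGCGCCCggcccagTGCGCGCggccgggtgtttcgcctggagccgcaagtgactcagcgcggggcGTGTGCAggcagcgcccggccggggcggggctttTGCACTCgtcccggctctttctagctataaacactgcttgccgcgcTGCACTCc

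ZFAND2A, an arsenite-inducible partner of the proteasome also known as AIRAP, had 82.3 and 98.5 FPKM with RUVBL1 guides and 19.8 and 20.1 FPKM in the sgNeg3 libraries (2.12 ± 0.23, limma adjusted p = 0.000743). Of 21 classical heat shock genes, 4 rose (all genes, 12.3%) and 1 fell (all genes, 15.5%). HSPA1B, an inducible HSP70 gene, had 7.46 and 7.25 FPKM, against 3.9 and 3.59 FPKM (0.82 ± 0.14), and shares near-identical sequence with HSPA1A, which was not called (0.42 ± 0.16). HSPB1, the small chaperone HSP27, fell to 148 and 149 FPKM, against 234 and 264 FPKM in the sgNeg3 libraries (-0.74 ± 0.24), a call that did not hold (limma adjusted p up to 0.228). HSPA8, the constitutive HSP70, stood at 752 and 704 FPKM, against 668 and 679.8 FPKM. Of 22 NRF2 genes, 5 rose, against the same 12.3%, and 1 fell, with OSGIN1, an oxidative stress growth inhibitor, at 12.6 and 14.7 FPKM, against 5.31 and 4.87 FPKM (1.26 ± 0.16, limma adjusted p = 0.00116).

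The other large rises were of varied function. SDCBP2 (syntenin-2), a PDZ adaptor that binds phosphoinositides, had 14.9 and 18.4 FPKM with RUVBL1 guides and 1.53 and 1.79 FPKM in the sgNeg3 libraries. It was 10.0-fold the control mean and ranged from 1.58 to 2.22 FPKM in the 4 MORF4L1 and MORF4L2 libraries. FST, follistatin, which sequesters activin, had 135 and 147 FPKM, against 35.3 and 32.5 FPKM (2.03 ± 0.11, limma adjusted p = 8.18e-05). GADD45B, a stress sensor, had 53.6 and 58.6 FPKM, against 13.5 and 10.9 FPKM (2.12 ± 0.25), and OVGP1, an oviductal glycoprotein, had 7.38 and 11 FPKM, against 1.45 and 1.08 FPKM. PGF, placental growth factor, had 3.98 and 6.31 FPKM, against 0.701 and 0.811 FPKM, and C4orf22 had 3.63 and 6.83 FPKM, against 0.908 and 0.484 FPKM. PGF and C4orf22 entered the test only through RUVBL1 and RUVBL2 knockout libraries, where they are high, so their calls are no support. IL1B, the inflammatory cytokine, had 43.7 and 39.1 FPKM, against 13.5 and 12.5 FPKM (1.60 ± 0.12, limma adjusted p = 0.000181). KRT8 and KRT18, the paired simple-epithelium keratins, had 40.1 and 43.7 FPKM, against 13.6 and 12.4 FPKM (1.62 ± 0.17), and 70.3 and 74.3 FPKM, against 36.4 and 41.1 FPKM (0.89 ± 0.21), while EPCAM stood at 0.282 and 0.274 FPKM, against 0.263 and 0.176 FPKM, and CDH1, E-cadherin, at 0 in all 4 libraries. The KRT18 call did not hold (limma adjusted p up to 0.104), and those of SDCBP2, FST, GADD45B, OVGP1, IL1B and KRT8 did.

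**Figure D3:**
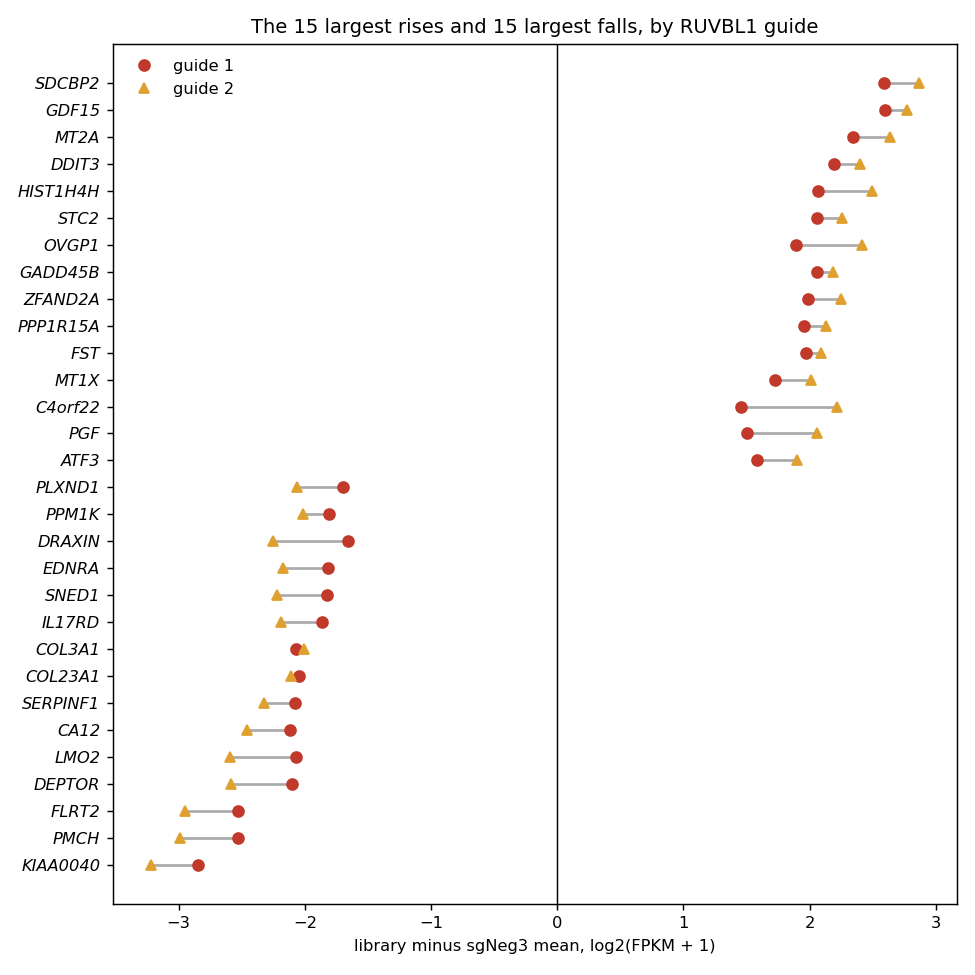
The 15 largest rises and 15 largest falls among called genes with a mean of at least 5 FPKM in the higher group. Points give each RUVBL1 library minus the sgNeg3 mean on the log2(FPKM + 1) scale (circle, guide 1; triangle, guide 2), and guide 2 lay farther from 0 in all but COL3A1.

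The largest falls included membrane, secreted and signalling genes. KIAA0040, a small membrane protein gene of unknown function, had 2.87 and 1.99 FPKM with RUVBL1 guides and 26.5 and 27 FPKM in the sgNeg3 libraries, and ranged from 24.9 to 34.6 FPKM in the 4 MORF4L1 and MORF4L2 libraries. FLRT2, an adhesion protein that guides axons, had 6.23 and 4.41 FPKM, against 40.0 and 41.4 FPKM (-2.74 ± 0.27, limma adjusted p = 0.000486). CA12, a membrane carbonic anhydrase, had 19.6 and 15.2 FPKM, against 88.1 and 88.4 FPKM (-2.29 ± 0.13, limma adjusted p = 8.18e-05). In these 3 genes the guides lay far below both controls. DEPTOR, an inhibitor of mTOR, had 1.4 and 0.715 FPKM, against 8.97 and 9.61 FPKM (-2.34 ± 0.19), and LMO2, a transcriptional adaptor, had 1.8 and 0.944 FPKM, against 11 and 10.5 FPKM (-2.33 ± 0.17). PMCH, a neuropeptide precursor, had 0.752 and 0.278 FPKM, against 10.4 and 7.96 FPKM. IL17RD (SEF), a brake on FGF signalling, had 8.25 and 6.38 FPKM, against 33 and 32.3 FPKM (-2.02 ± 0.14), and EDNRA, an endothelin receptor, had 2.41 and 1.66 FPKM, against 10.3 and 11.7 FPKM (-1.99 ± 0.19). S100A4, a calcium-binding protein of motile cells, had 93.8 and 92.2 FPKM, against 295 and 294 FPKM (-1.65 ± 0.23, limma adjusted p = 0.00188). All of these calls held.

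Extracellular matrix genes fell. Of 19 tested collagen genes, 13 were lower and 0 higher (median -0.98), and of 23 laminin and matricellular genes, 11 were lower and 0 higher (median -0.55), where 15.5% of all genes tested were lower. Without any 1 library, 8 to 10 collagens and 4 to 7 of the others were lower. COL23A1, a transmembrane collagen, had 22.6 and 21.6 FPKM with RUVBL1 guides and 99.1 and 93.8 FPKM in the sgNeg3 libraries (-2.08 ± 0.15, limma adjusted p = 0.000187). COL6A2, of the microfibrillar collagen VI, had 348 and 336 FPKM, against 803 and 899 FPKM (-1.31 ± 0.20), and COL1A2, of fibrillar collagen I, had 64.6 and 61.9 FPKM, against 134 and 140.5 FPKM (-1.10 ± 0.13). The partner chain COL1A1 stood at 201 and 230.3 FPKM, against 304 and 315 FPKM, and did not pass (-0.52 ± 0.23). SPARC, a collagen-binding matricellular protein, had 182 and 179.7 FPKM, against 434 and 419.6 FPKM (-1.23 ± 0.15, limma adjusted p = 0.001), and NID1, a basement membrane linker, had 4.86 and 3.9 FPKM, against 15.7 and 16.1 FPKM (-1.66 ± 0.24). COL23A1, COL6A2, COL1A2, SPARC and NID1 held. FN1, fibronectin, was not called at 244 and 225 FPKM, against 226 and 238 FPKM, as was TGFBI at 1168 and 1131 FPKM, against 1163 and 1154 FPKM. Among proteases and inhibitors, MMP14, the membrane-bound activator of MMP2, fell to 34.4 and 33.7 FPKM, against 66.1 and 64.3 FPKM in the sgNeg3 libraries (-0.92 ± 0.10), and TIMP3, an inhibitor of metalloproteinases, to 23.5 and 22.8 FPKM, against 54 and 52.6 FPKM (-1.17 ± 0.18).

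Many matrix genes have long transcripts, and long transcripts were lower as a class: the median difference was -0.18 in the sixth of tested genes with the longest transcripts and 0.03 in the sixth with the shortest. With this trend removed, 13 collagens (median -0.93) and 11 laminin and matricellular genes were lower, and 33 of the mitotic genes (median -0.99). That alternative was chosen after seeing the data.

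Some neural progenitor and lipid synthesis genes fell. SOX2, the stem cell factor of glioma and neural progenitors, had 12.3 and 9.37 FPKM with RUVBL1 guides and 39.7 and 39.7 FPKM in the sgNeg3 libraries. Both guides lay far below both controls, by -1.79 ± 0.14 (limma adjusted p = 0.000222). HEY1, a Notch effector, had 8.65 and 7.24 FPKM, against 19.9 and 19.5 FPKM (-1.21 ± 0.15). Of 20 tested genes of the progenitor and glioma list, 8 were lower (all genes, 15.5%) and 0 higher (2 to 6 lower without any 1 library), and SOX9 was not called, at 39.7 and 31.8 FPKM, against 45.2 and 46.8 FPKM. Of 31 cholesterol and fatty acid genes, 12 were lower, against the same 15.5%, and 0 higher (6 to 8 without any 1 library). SREBF1, the master regulator of fatty acid synthesis, had 24.7 and 21.2 FPKM, against 50.7 and 55 FPKM (-1.17 ± 0.12, limma adjusted p = 0.000488), and SCD, the stearoyl-CoA desaturase, had 185 and 145 FPKM, against 560.2 and 547 FPKM (-1.75 ± 0.19, limma adjusted p = 0.000794). FADS2, the delta-6 desaturase, had 154 and 129 FPKM, against 307 and 301 FPKM (-1.10 ± 0.14). SOX2, HEY1, SREBF1, SCD and FADS2 held. In the sterol branch LSS, lanosterol synthase, fell to 39.4 and 40.7 FPKM, against 71.3 and 70.9 FPKM (-0.81 ± 0.10), a call that held. SQLE, squalene epoxidase, stood at 41.4 and 39.7 FPKM, against 38.3 and 38.3 FPKM, and was not called.

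Organelle and translation genes differed by class. Of 39 lysosomal genes, 15 rose (all genes, 12.3%) and 4 fell, and 3 to 7 rose without any 1 library. The risers included subunits of the vacuolar proton pump. ATP6V0A1 had 20.3 and 21 FPKM, against 11.2 and 11.3 FPKM (0.82 ± 0.09), and ATP6V0D1 had 71.9 and 79.6 FPKM, against 39.6 and 40.7 FPKM (0.90 ± 0.15). MCOLN1, a calcium channel of the lysosome, had 9.93 and 10.9 FPKM, against 5.16 and 5.31 FPKM (0.87 ± 0.11). These calls held, while those of the pump subunits ATP6V1D (0.80 ± 0.17) and ATP6V1H (0.62 ± 0.13) did not. Those that fell were LAMP2, a membrane protein, and the hydrolases GLA, GLB1 and TPP1, of which GLA held. Of 39 ribosome biogenesis genes, 13 rose, against the same 12.3%, and 0 fell (2 to 5 without any 1 library), led by RRP12, an export factor of the small subunit, at 15.2 and 17.5 FPKM, against 8.38 and 8.84 FPKM (0.85 ± 0.12), and RRN3, the initiation factor of RNA polymerase I, at 24.6 and 22.2 FPKM, against 10.9 and 12.9 FPKM (0.92 ± 0.13). The 52 cytosolic ribosomal protein genes held 0 calls by limma (median 0.15), with 3 higher and 0 lower at an unadjusted p under 0.05. The 48 genes of oxidative phosphorylation also held 0 (median 0.19), with 0 higher and 0 lower unadjusted.

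**Figure D4:**
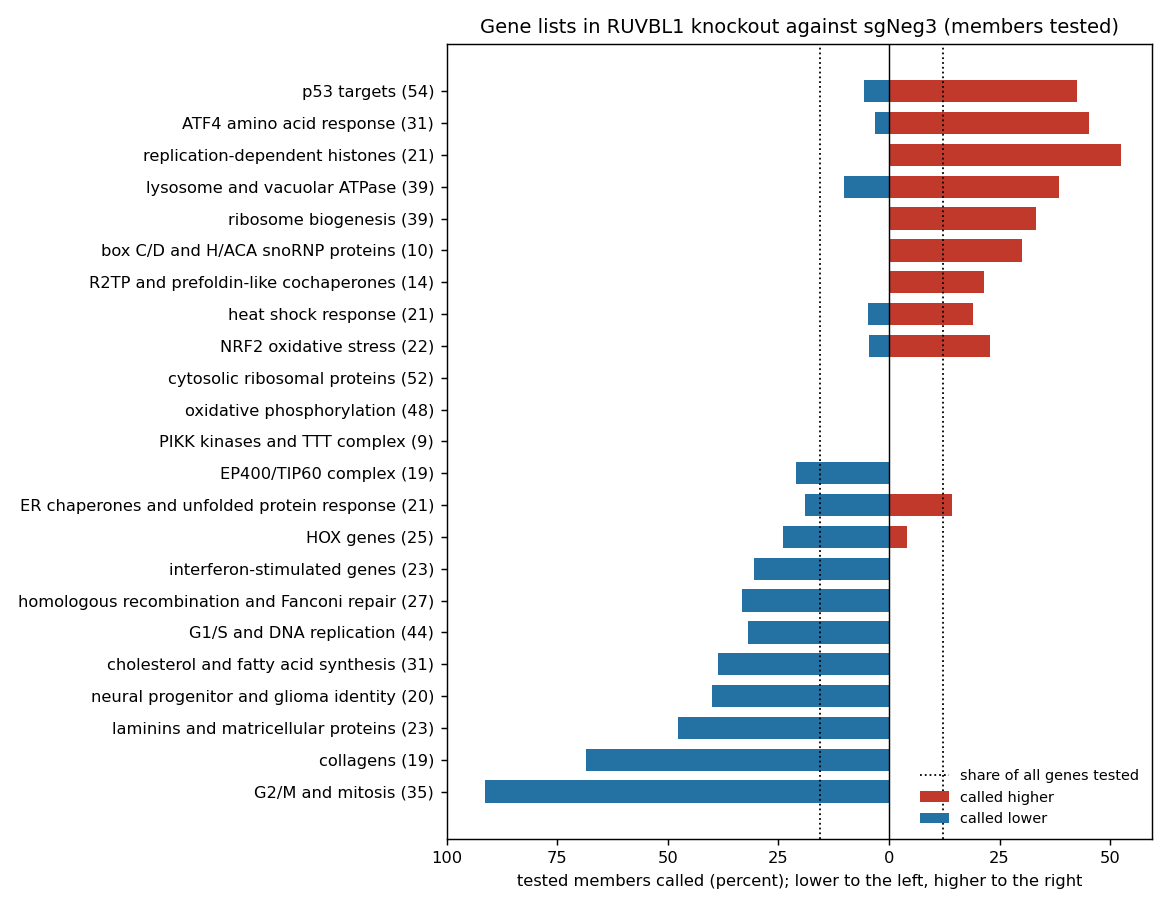
Share of tested members called higher (red, right) or lower (blue, left) in RUVBL1 knockout against sgNeg3, in percent, for 23 gene lists with the number tested in brackets. Dotted lines give the shares over all genes tested, 12.3% higher and 15.5% lower. The mitotic list reached 91.4% lower and the histone list 52.4% higher. The shares of the histone and p53 lists include risers that entered the test only through knockout libraries where they are high, and these are no support.

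Each RUVBL1 guide is 1 library, so a difference between guides and one between libraries cannot be told apart, and the values by guide are a description. Guide 2 had the larger change in 2415 of the 3077 called genes (78.5%), with a median absolute change of 0.71 for guide 2 and 0.59 for guide 1. The mitotic list had a median of -0.85 with guide 1 and -1.20 with guide 2, and KIF11, for example, changed by -1.20 and -1.78. The collagens had medians of -0.99 and -1.01 and the p53 targets of 0.40 and 0.38. In the direct contrast of guide 1 with guide 2, limma called 0 genes (0%), while 202 had an unadjusted p under 0.05. Each library is assumed there to vary like the other pairs. RUVBL1 mRNA stood at 24.2 FPKM with guide 1 and 25.6 FPKM with guide 2, and whether the remaining protein differed between guides was not tested.

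Set directly against RUVBL2 knockout, RUVBL1 knockout differed in 1 called gene, RUVBL2 itself (0.00904% of genes tested). RUVBL2 had 133 and 137 FPKM in RUVBL1 knockout and 27.3 and 31.3 FPKM in RUVBL2 knockout (2.17 ± 0.22, limma adjusted p = 0.0363), a call that was lost when any 1 of these 4 libraries was left out. The count rested on the spread: it was 131 with the spread of the compared groups alone and 268 without the MORF4L1 and MORF4L2 guide 2 libraries, the last chosen after seeing the data. Over every gene above 0 it was 6, all lower in RUVBL1 knockout, and RUVBL2 was no longer among them (limma adjusted p = 0.0525). RUVBL1 had 24.2 and 25.6 FPKM in RUVBL1 knockout and 53.4 and 57 FPKM in RUVBL2 knockout (-1.12 ± 0.16, limma adjusted p = 0.356). At an unadjusted p under 0.05, 453 genes were higher in RUVBL1 knockout (4.09%) and 141 lower (1.27%). The mitotic genes lay higher in RUVBL1 than in RUVBL2 knockout: 35 of 35 lay above RUVBL2 knockout, where 57.7% of all genes tested did, with a median difference of 0.38 and 18 at an unadjusted p under 0.05. CCNB1 had 33.1 and 26.8 FPKM in RUVBL1 knockout and 17.6 and 18.6 FPKM in RUVBL2 knockout (0.69 ± 0.16), and CDC20, the activator of the anaphase-promoting complex, had 34.7 and 27.8 FPKM in RUVBL1 knockout and 14.5 and 17.2 FPKM in RUVBL2 knockout (0.93 ± 0.20). Neither passed after adjustment (limma adjusted p = 0.646 and 0.646). The cytosolic ribosomal protein genes also lay above RUVBL2 knockout in 52 of 52 cases (median 0.34), and the replication-dependent histones in 3 of 21 (median -0.26). The direction of these 3 medians was the same after rescaling the libraries by their median ratio. EGR1, an immediate early factor, had 15.5 and 8.22 FPKM in RUVBL1 knockout, 3.88 and 4.84 FPKM in RUVBL2 knockout and 40.5 and 41.3 FPKM in the sgNeg3 libraries. Its difference between the 2 knockouts did not pass (1.21 ± 0.31, limma adjusted p = 0.646).

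**Figure D5:**
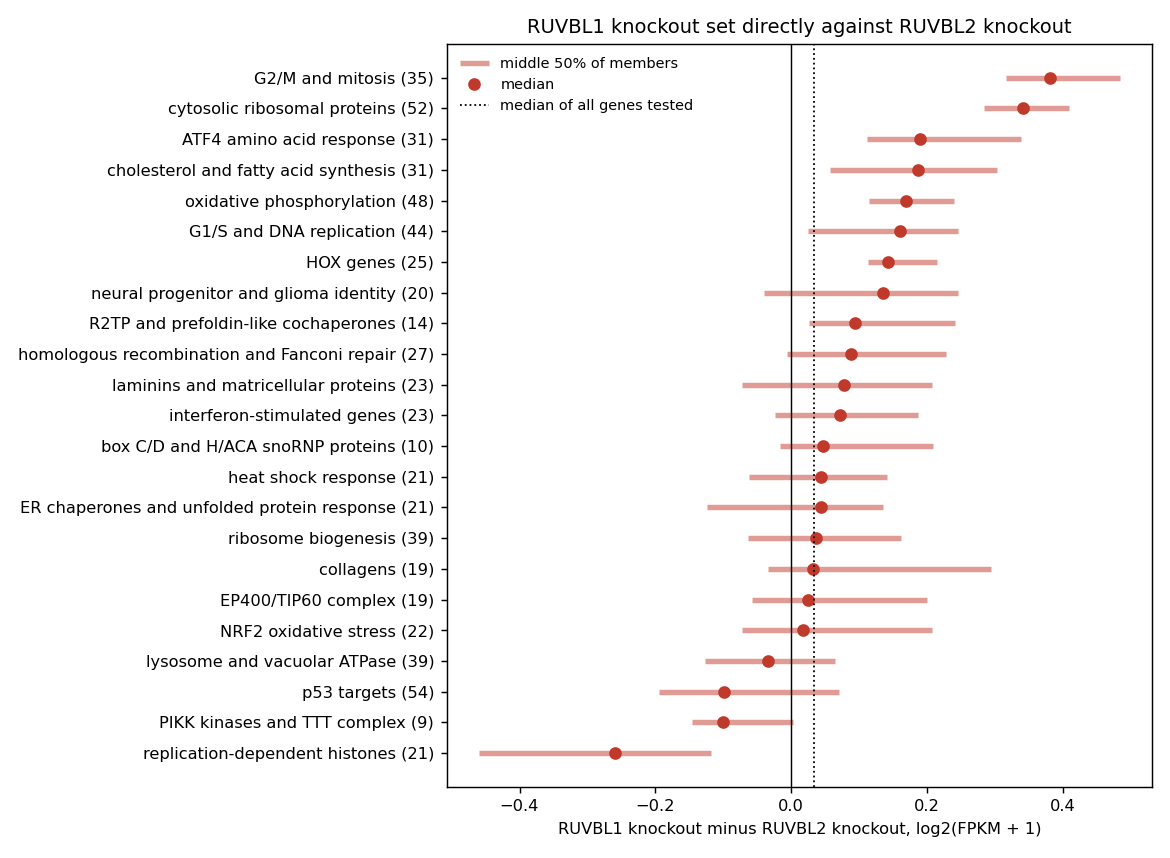
RUVBL1 knockout minus RUVBL2 knockout on the log2(FPKM + 1) scale by gene list (members tested in brackets). Points are medians, thick lines the middle 50% of members and the dotted line the median of all genes tested (0.03); of the lists plotted, the mitotic list lay highest at 0.38 and the histone list lowest at -0.26.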

How the data were processed

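The authors sequenced polyadenylated RNA with a stranded kit, per the labels' protocols, and deposited 1 table of FPKM values for 19102 genes. Alignment and quantification tools were TopHat2, Cufflinks and Cuffdiff on hg19, per the submitters' processing notes, with versions not given in the sources used here. The table's empty columns mark 5 separately normalised sections, and only the 10 libraries of the sgNeg3 section were used. The fragments behind 1 FPKM were estimated from the spacing of the smallest values. The values were taken as log2(FPKM + 1) and fitted with limma 3.58.1 in R 4.3.3 (a mean per target, moderated variances following the expression level, two-sided tests) for RUVBL1 minus sgNeg3, RUVBL1 minus RUVBL2 and guide 1 minus guide 2. The scripts were checked on data with known differences. Transcript lengths came from GENCODE 29 and promoter windows from RefSeq GRCh38.p14 (9209 tested genes matched). Only the first start listed per gene was searched, and other starts were not. No hg19 coordinates are printed. Named genes were the target, its partner, CDKN1A, MDM2, the 15 largest called rises and falls with a mean of at least 5 FPKM in the higher group, up to 5 called members of smallest adjusted p per list and direction, and members a list is built around. Every other gene, apart from the cell type markers, was named after its values were seen. Members and lists were chosen with earlier results of these data known. Alternatives covered the pseudocount, filter, scaling, spread, control, block and left-out libraries. Some items are not reported here.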

Additional observations from a re-analysis of the deposited data

How the results depend on the processing

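The count for RUVBL1 minus sgNeg3 (3077) moved to 6113 with the spread from the compared groups alone, to 6104 without the guide 2 libraries of MORF4L1 and MORF4L2 in the spread (chosen after seeing the data), and to between 856 and 1984 without 1 library. The calls within the gene lists (331) moved to 662, 641 and between 139 and 232 under the same alternatives. RUVBL1 minus RUVBL2 gave 6 calls over every gene above 0, 131 with its own spread (118 higher and 13 lower in RUVBL1 knockout), 2 with the length trend removed, 268 without the MORF4L guide 2 libraries and 0 without 1 library, and the guide contrast gave 22 over every gene above 0. The cause of these moves was not tested, except that leaving out a library removes samples. The pseudocount, the filter, the scaling and the 6-library control left the main count within 1.5 times, but rescaling moved the share of calls that were higher to 50.7%. The numbers do not pair RUVBL1 with sgNeg3: library 2 minus library 1 correlated at -0.03 (Pearson, across genes) between them. Among the 4 knockouts it correlated at 0.32 to 0.72, so libraries of the same guide number deviated together there. A replicate block gave 4139 calls, 416 within the lists, 2 against RUVBL2 and 0 between guides. No called gene among those the naming rule chose changed direction under the alternatives run; 108 of 229 were called in all 4 fits without 1 library. Depth limits weakly expressed genes, where 1 FPKM is under 18 fragments per kilobase.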

Other observations

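Of 25 HOX genes, 6 fell in RUVBL1 knockout against sgNeg3 (all genes, 15.5%) and 1 rose, with a median of -0.08. HOXB3 had 36.1 and 34.1 FPKM with RUVBL1 guides and 72.2 and 68.4 FPKM in the sgNeg3 libraries (-0.98 ± 0.12), HOXB4 had 30.5 and 31.2 FPKM, against 54.9 and 52.6 FPKM (-0.78 ± 0.13), and HOXB9 had 6.73 and 6.89 FPKM, against 12.3 and 11.8 FPKM (-0.74 ± 0.10). HOXC6 was the member that rose, with 20.9 and 21.6 FPKM, against 11 and 10.3 FPKM (0.93 ± 0.15). In each of these 4 genes the groups did not overlap and the limma call was kept without any 1 library.

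Of 23 interferon-stimulated genes, 7 fell (all genes, 15.5%) and 0 rose, and 1 to 6 fell without any 1 library. HERC6 had 1.45 and 1.33 FPKM with RUVBL1 guides and 3.46 and 2.94 FPKM in the sgNeg3 libraries (-0.81 ± 0.13), and IFITM1 had 0.597 and 0.949 FPKM, against 3.12 and 3 FPKM, a call that did not hold without 1 library (limma adjusted p up to 0.0613). CXCL12, a chemokine of stem cell niches, had 4.5 and 4.56 FPKM, against 16 and 15 FPKM (-1.58 ± 0.17). TGFB2 had 13.5 and 9.79 FPKM, against 32.5 and 34 FPKM (-1.45 ± 0.17), INHBE 2.53 and 1.55 FPKM, against 5.8 and 5.69 FPKM, and BMP4 0.862 and 1.16 FPKM, against 3.4 and 3 FPKM (limma adjusted p up to 0.0532 without 1 library), and of 16 activin and BMP genes 7 fell, against the same 15.5%, and 1 rose, the riser being FST. JUP, plakoglobin, had 4.95 and 5.28 FPKM, against 15 and 15.5 FPKM (-1.41 ± 0.11). CD14, which reached 1 FPKM only in RUVBL1 and RUVBL2 knockout libraries, had 1.23 and 1.85 FPKM, against 0.172 and 0.101 FPKM, while PTPRC, the pan-leukocyte marker, stood at 0 and 0 FPKM, against 0.012 and 0 FPKM.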
